A study of Mus musculus with 25 samples.

Results

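Chromatin accessibility was compared between PD1+CD73- fetus/graft-specific CD8+ T cells (TFGS) of sensitized mice that had then been pregnant (S+P C7, 4 samples) and PD1+CD73+ TFGS of naive mice that had been pregnant (N+P C5, 3 samples). These 7 samples were chosen by their labels out of 25 samples in 7 groups, and the comparison covered all 13527 peaks of the count table. All animals were C57BL/6 females, and the cells came from spleen and lymph nodes. Both groups had a semi-allogeneic pregnancy by males of a BALB/c strain that carries a model antigen including OVA, and the cells were sorted after birth with an OVA tetramer. The S+P mice had received an allogeneic skin graft before pregnancy, and the N+P mice had not. The 2 groups therefore differed in graft history and in the CD73 gate at once, and a contrast of S+P C7 with N+P C5 alone cannot tell these apart. S+P C5 (4 samples), the PD1+CD73+ cells of sensitized and pregnant mice, were used to hold one of them fixed at a time. Cells bound to 1 tetramer are a single specificity sorted by surface gates, so each library is an average over the cells of a gate, and fewer cells with an open site and less opening in each cell cannot be told apart.

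ATAC-seq cuts DNA where chromatin is open, so that the read count of a peak reports accessibility. Naive CD8+ T cells keep open the regulatory regions of quiescence and homing genes such as Tcf7, Lef1, Satb1 and Ccr7. After strong antigen encounter, effector cells open regions near granzyme, chemokine and killer cell receptor genes, and chronically stimulated cells also open regions near inhibitory receptors such as PD1 and the transcription factor Tox. CD73, the product of Nt5e, makes adenosine from AMP and is carried by naive and anergic T cells.

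Counts in peaks totalled 8197552, 6122299 and 7040324 in N+P C5 and 9524894, 4789587, 4989423 and 12638305 in S+P C7, in the order of the replicate numbers. No difference in depth between the groups was detected (two-sided exact permutation p = 0.8, where 0.0571 is the smallest p that 4 against 3 samples allow). The correlation of log2 normalized counts across peaks ran from 0.936 to 0.963 among the S+P C7 samples, from 0.977 to 0.982 among the N+P C5 samples and from 0.501 to 0.670 between the groups. The study prepared cells from individual mice and its sorts had technical replicates, but the labels do not tie each library to an animal, so the spread between samples may be in part technical. Of the merged peaks, 26 lay nearest to 7 of 8 CD8 T cell markers, 15 to NK cell markers and 2 to markers of CD4 and regulatory T cells. None had its nearest start at a marker listed for B cells (6 genes), myeloid cells (7 genes) or erythroid cells (3 genes). Cd8b1, a CD8 T cell marker, had none either, so a missing peak does not show that a cell type was absent.

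The peaks that changed most firmly outside promoters are shown first as sequence, 200 bp around the midpoint on the forward strand of GRCm39. Capitals mark the binding strings searched for in all peaks. These are the AP-1 string TGANTCA, the TCF/LEF string CTTTGA and the NR4A string AAGGTCA, each read on both strands. The first 3 windows are those of the opening peaks (higher in S+P C7) with the smallest adjusted p outside promoters. The next 3 are closing peaks (lower in S+P C7), those of rank 1, 3 and 4 by adjusted p outside promoters. The Smad7 peak, of rank 2, is not shown as sequence. The last 2 are peaks of gene lists picked after the search to show an AP-1 string in an opening peak and a TCF/LEF string in a closing one.
Ptpn13 intron, opening, chr5:103590144-103590343: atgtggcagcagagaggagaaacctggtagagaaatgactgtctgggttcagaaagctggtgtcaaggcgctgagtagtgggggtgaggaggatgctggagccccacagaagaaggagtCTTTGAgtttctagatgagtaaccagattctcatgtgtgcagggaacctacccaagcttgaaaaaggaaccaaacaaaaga
Downstream of Kat14, opening, chr2:144283311-144283510: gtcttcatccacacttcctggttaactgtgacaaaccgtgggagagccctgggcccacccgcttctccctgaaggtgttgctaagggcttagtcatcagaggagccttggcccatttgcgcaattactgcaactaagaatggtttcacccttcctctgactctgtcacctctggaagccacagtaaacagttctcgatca
Upstream of Gzmk, opening, chr13:113319844-113320043: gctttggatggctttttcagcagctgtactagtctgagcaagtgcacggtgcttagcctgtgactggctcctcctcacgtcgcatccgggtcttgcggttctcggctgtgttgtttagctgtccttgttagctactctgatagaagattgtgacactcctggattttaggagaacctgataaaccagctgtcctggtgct
Upstream of Fbxl21, closing, chr13:56655056-56655255: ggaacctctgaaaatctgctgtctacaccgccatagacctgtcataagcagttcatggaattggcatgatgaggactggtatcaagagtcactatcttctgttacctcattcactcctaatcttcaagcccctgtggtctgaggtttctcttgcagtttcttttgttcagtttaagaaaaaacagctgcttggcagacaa
Upstream of Foxp1, closing, chr6:99463231-99463430: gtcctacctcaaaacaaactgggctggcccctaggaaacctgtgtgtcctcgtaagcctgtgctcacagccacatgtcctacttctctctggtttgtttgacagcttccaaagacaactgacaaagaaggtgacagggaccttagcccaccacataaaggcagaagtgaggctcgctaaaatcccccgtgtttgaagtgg
Dusp22 intron, closing, chr13:30865960-30866159: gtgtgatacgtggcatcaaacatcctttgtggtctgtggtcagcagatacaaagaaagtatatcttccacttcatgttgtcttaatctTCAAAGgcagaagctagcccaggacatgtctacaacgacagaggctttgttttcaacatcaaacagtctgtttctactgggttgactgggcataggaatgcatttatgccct
Upstream of Id2, opening, chr12:25205592-25205791: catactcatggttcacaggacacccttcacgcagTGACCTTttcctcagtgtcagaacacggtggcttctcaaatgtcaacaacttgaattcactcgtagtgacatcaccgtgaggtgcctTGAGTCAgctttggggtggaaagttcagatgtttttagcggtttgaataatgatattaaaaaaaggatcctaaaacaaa
Upstream of Cxcr4, closing, chr1:128529102-128529301: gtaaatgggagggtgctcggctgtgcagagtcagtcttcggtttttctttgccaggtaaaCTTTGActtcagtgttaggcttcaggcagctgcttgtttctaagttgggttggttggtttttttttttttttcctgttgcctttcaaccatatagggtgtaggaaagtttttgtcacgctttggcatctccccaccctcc

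Counted from the left end of each window, the Ptpn13 window held a TCF/LEF string at position 120 and the Dusp22 window one at position 89. The Kat14, Gzmk, Fbxl21 and Foxp1 windows held none of the 10 strings searched. The Id2 window held an NR4A string at position 35 and an AP-1 string at position 122, and the Cxcr4 window held a TCF/LEF string at position 61.

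S+P C7 and N+P C5 differed across a wide part of the accessible genome. By DESeq2, 1543 peaks were opening (11.4% of the 13527 tested) and 1431 were closing (10.6%), 22% in all, at an adjusted p under 0.1 and a log2 fold change beyond 0.9 in either direction. The adjusted p alone passed in 9665 peaks (71.4%), so the fold threshold sets the number of calls. The 2 groups had separate ranges of normalized counts in 8924 peaks (66%), and in 2949 of the 2974 called peaks. The median log2 fold change over all peaks was 0.01, with an interquartile range from -0.41 to 0.43. More than 4-fold differences were counted in 655 opening and 488 closing peaks. Tested against a log2 fold change of 0.9 rather than against no change, 876 peaks were opening and 703 closing. With peaks limited to a mean count of at least 300 there were 777 and 856.

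The differences lay mainly outside promoters, where a promoter peak is one centred within 1000 bp of a protein-coding transcript start. Among 7670 promoter peaks, 186 (2.43%) were opening and 245 (3.19%) closing. Among the 5857 peaks outside promoters, 1357 (23.2%) were opening and 1186 (20.2%) closing. By position, 718 of 2663 intronic peaks opened and 557 closed, and 611 of 2966 intergenic peaks opened and 584 closed.

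**Figure D1:**
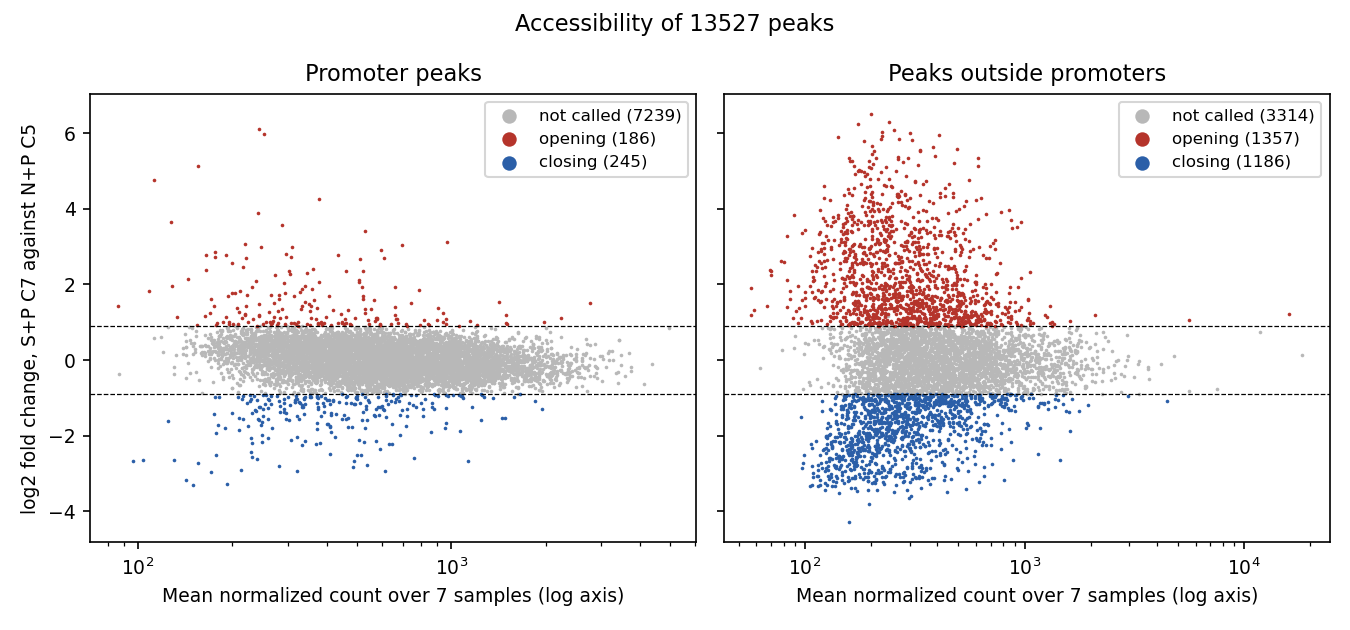
Mean normalized count over the 7 samples (log axis) against the log2 fold change of S+P C7 against N+P C5, for 7670 promoter peaks (left) and 5857 peaks outside promoters (right). Red points are opening and blue points closing peaks, and dashed lines mark a log2 fold change of 0.9 in either direction. Called peaks were 431 of the promoter peaks and 2543 of the others.

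The named peaks with the smallest adjusted p over all genes were picked among called peaks without overlap between the 7 samples. Their separation follows from that choice. Peaks named for a gene list, or as also called against S+P C5, were picked among called peaks with no condition on overlap. That they differ is given by the call. The Pdcd1 peak 39428 bp upstream and the Nt5e, Cd8a and Cd3e peaks with the highest mean count over all samples were picked by that mean, called or not. The size of many folds depended on the scaling. With loess offsets, which scale each sample separately at each count level, 40 of the 105 named peaks moved by more than 1.5 times. The 32 opening ones among them all had smaller folds, and the closing ones larger folds. The firmest opening peak lay in an intron of Ptpn13, which encodes a tyrosine phosphatase (chr5:103590017-103590472). Its normalized counts were 441, 497, 356 and 314 in S+P C7 and 30.2, 24.7 and 34.9 in N+P C5. The groups were far from overlapping, with a log2 fold change of 3.74 ± 0.27 (SE, DESeq2 adjusted p = 1.2e-38), or 13.4-fold, and 1.79 with loess offsets. The next, an intergenic peak 37413 bp downstream of Kat14, a subunit of a histone acetyltransferase complex, held 610, 516, 520 and 488 in S+P C7 against 6.04, 2.74 and 19.2 in N+P C5 (log2 fold change 5.83 ± 0.47, adjusted p = 2.79e-32, DESeq2). Every N+P C5 sample was far below the lowest S+P C7 sample. The log2 fold change at Kat14 was 3.60 with loess offsets and 6.86 without N+P C5 replicate 3.

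Gzmk encodes granzyme K, a serine protease of cytotoxic granules, and 2 of the named peaks lay beside it. The peak 2513 bp upstream of its start (chr13:113319379-113320510) held 808, 880, 840 and 747 in S+P C7 against 21.1, 28.8 and 16.8 in N+P C5, 37.0-fold higher (log2 fold change 5.21 ± 0.42, and 4.40 with loess offsets). The Gzmk promoter peak (chr13:113317185-113317919) held 364, 497, 441 and 383 in S+P C7 against 2.01, 12.3 and 4.81 in N+P C5. Counts at both sites were low in all N+P C5 samples, and the log2 fold change was 6.11 ± 0.58 at the promoter (adjusted p = 2.39e-23, DESeq2). The promoter value was 3.65 with loess offsets and 6.98 without N+P C5 replicate 2. All 3 peaks nearest to Gzmk were opening.

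Further named opening peaks outside promoters lay in introns of Stx6, a membrane fusion protein (log2 fold change 3.67 ± 0.30), and Aopep, an aminopeptidase (2.92 ± 0.24). Another lay 34461 bp downstream of Adrb1, the beta-1 adrenergic receptor gene. It held 699, 924, 736 and 1028 in S+P C7 and 24.1, 16.4 and 12 in N+P C5 (log2 fold change 5.58 ± 0.46).

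Among promoters, the peak at a start of Nek6, a mitotic kinase, rose 8.68-fold, from 207, 169 and 161 to 1437, 1762, 1486 and 1536. The promoter of Tnfrsf9, which encodes the costimulatory receptor 4-1BB, was already open in N+P C5 (775, 881 and 929) and held 1977, 2034, 1990 and 1903 in S+P C7. Its change was smaller, a log2 fold change of 1.2 ± 0.12, and was no longer called when tested against the fold threshold. The promoter of Ccl3, an inflammatory chemokine gene, held 506, 671, 747 and 629 against 36.2, 35.6 and 27.7, a log2 fold change of 4.27 ± 0.45.

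The firmest closing peak lay 15107 bp upstream of Fbxl21, an F-box gene (chr13:56654677-56655636). It held 496, 611 and 693 in N+P C5 and 128, 83.4, 76.2 and 88.4 in S+P C7 (log2 fold change -2.65 ± 0.18, adjusted p = 8.48e-45, DESeq2). The lowest N+P C5 sample was well above the highest S+P C7 sample.

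Foxp1 encodes a transcription factor that holds naive T cells in quiescence. A peak 16936 bp upstream of its nearest start, inside an intron of the overlapping gene model Gm20696 (chr6:99462925-99463737), held 435, 485 and 540 in N+P C5 and 114, 91.9, 58.0 and 57.2 in S+P C7. The groups did not overlap (log2 fold change -2.60 ± 0.23, adjusted p = 7.61e-28, DESeq2).

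Smad7, an inhibitor of TGF-beta signalling, had a closing peak 44943 bp upstream (log2 fold change -2.41 ± 0.21). Dusp22, a phosphatase gene, had one in an intron (-2.76 ± 0.26), and Abhd2, a hydrolase gene, likewise (-2.84 ± 0.26). A peak far downstream of Cog6, at 369275 bp, fell less (-1.57 ± 0.16). At the Fbxl21, Smad7, Foxp1, Dusp22, Abhd2 and Cog6 peaks S+P C7 replicate 1 held the highest of the 4 S+P C7 counts.

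Promoter peaks that closed by over 4-fold numbered 41, but none of the 4 named ones did. The promoter of Txnrd3, a thioredoxin reductase gene, held 1252, 1297 and 1241 in N+P C5 and 532, 625, 527 and 610 in S+P C7. The log2 fold change was -1.14 ± 0.10 and was not called when tested against the fold threshold. The promoter of Pcbp3, an RNA-binding protein gene, held 927, 928 and 893 against 413, 305, 424 and 343 (-1.30 ± 0.12). Those of Shb, an adaptor of T cell receptor signalling, and Nedd4l, a ubiquitin ligase, fell by 1.54 and 1.47 on the log2 scale.

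**Figure D2:**
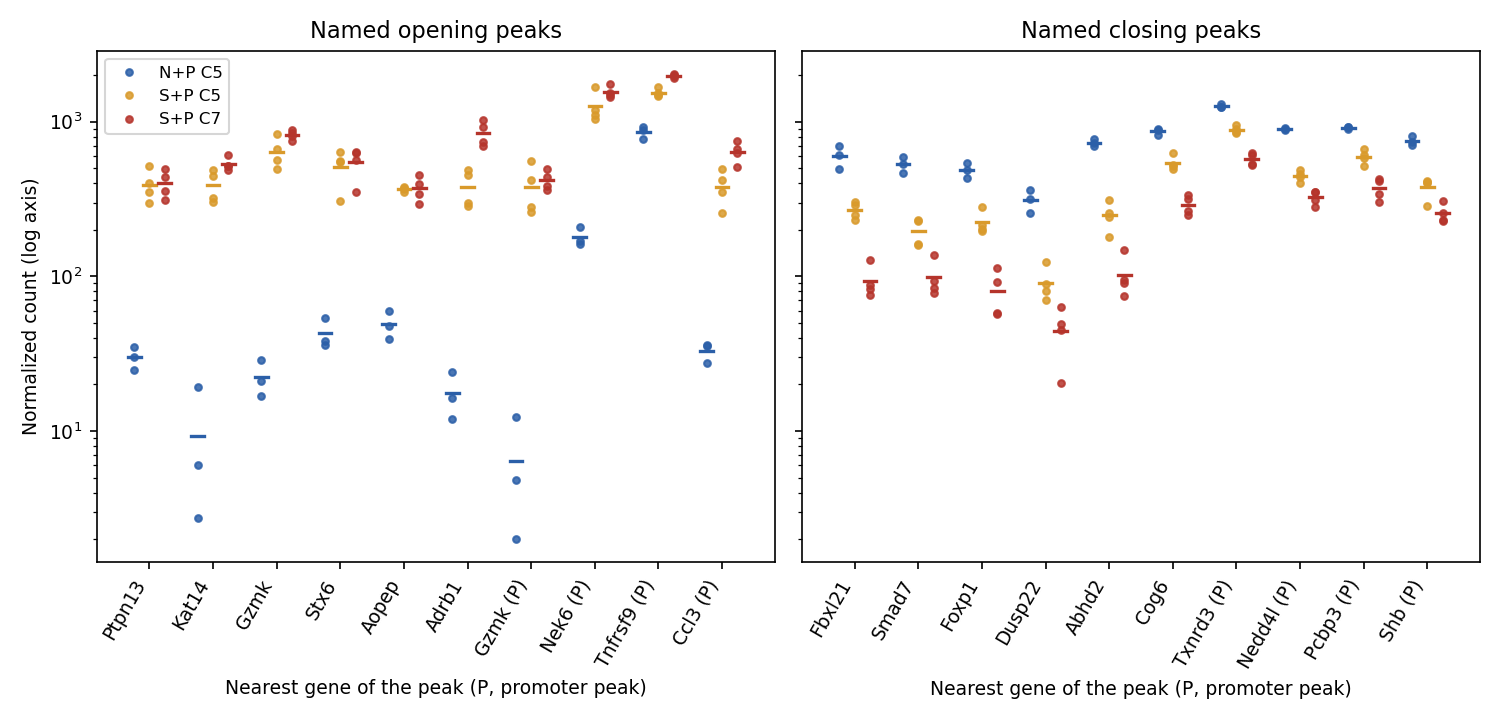
Normalized counts (log axis) of the 10 named opening and 10 named closing peaks in each sample of N+P C5 (blue), S+P C5 (yellow) and S+P C7 (red), with bars at group means and promoter peaks marked P. These peaks were chosen on the condition that blue and red points do not overlap. At the opening peaks in Ptpn13 and Aopep the S+P C5 samples overlap those of S+P C7.

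The called peaks were then read in the groups that took no part in choosing them. Over the 1543 opening peaks, the median normalized count of a sample was 389 to 443 in S+P C7 and 104 to 109 in N+P C5, which is how the peaks were picked. Naive mice, with neither graft nor pregnancy, had 102 to 111, and PD1-negative cells of N+P mice (N+P C1) had 83.0 to 88.6. Sensitized mice, grafted but not pregnant, had 355, 323, 162 and 181. S+P C4, the PD1-negative cells of S+P mice, had 197 to 345, and S+P C5 had 330 to 436.

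The closing peaks gave the mirror order. Their median was 424 to 499 in N+P C5, 452 to 502 in Naive and 424 to 507 in N+P C1. It was 226 to 433 in Sensitized, 199 to 412 in S+P C4, 188 to 273 in S+P C5 and 125 to 188 in S+P C7. Naive and N+P C5 samples overlapped for both sets. The 4 Sensitized samples spread widely, and their 2 highest samples at opening peaks were the 2 lowest at closing peaks.

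**Figure D3:**
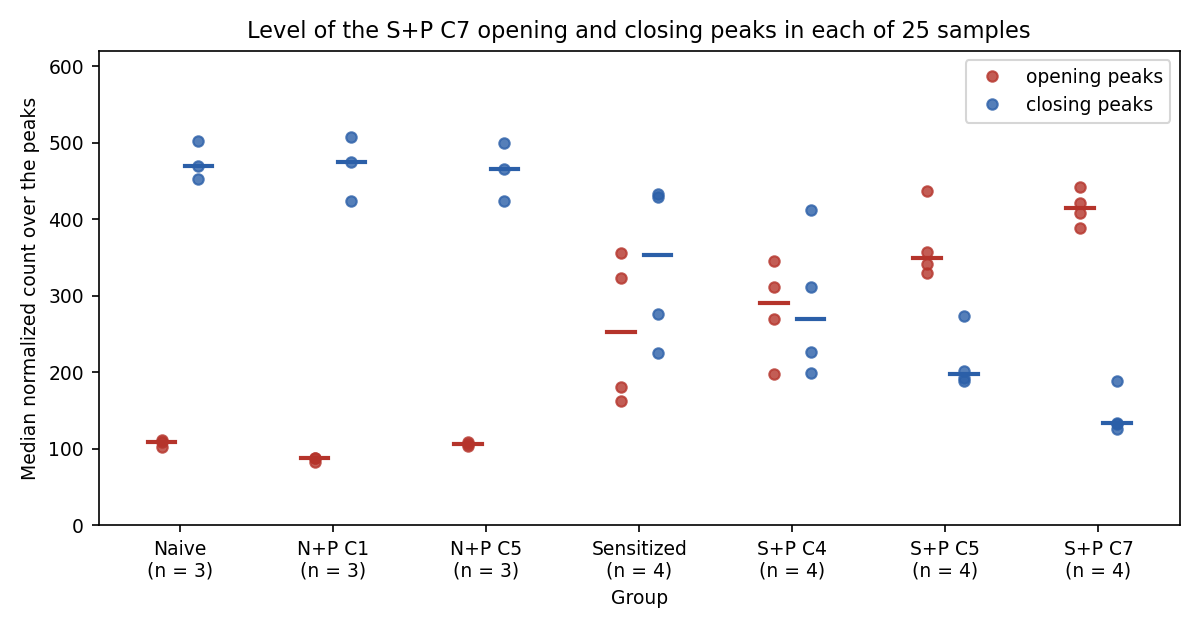
Median normalized count over the 1543 opening (red) and 1431 closing (blue) peaks in each of the 25 samples, by group, with bars at the group medians. N+P C5 and S+P C7 chose the peaks, so their separation is given, whereas Naive overlaps N+P C5 for both sets, N+P C1 lies below it for opening peaks (83.0 to 88.6 against 104 to 109) and overlaps it for closing peaks, and Sensitized and S+P C4 extend between the chosen groups.

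Peaks were grouped by lists of genes, each peak counted for its nearest protein-coding start. The cytotoxic and chemokine genes stood out most: of 54 peaks, 35 were opening and 1 closing (64.8% and 1.85%, against 11.4% and 10.6% of all peaks), and the median log2 fold change was 1.87. Opening peaks lay at 12 of 14 genes with a peak, Nkg7 and Tnf being the exceptions. Gzma, the granzyme A gene, had 4 of 4 peaks opening, and the one 19529 bp upstream held 489, 502, 446 and 559 in S+P C7 against 58.4, 41.1 and 56.5 in N+P C5 (log2 fold change 3.26 ± 0.31). Ccl4, a chemokine gene beside Ccl3, had 2 of 2 opening, and its peak 4864 bp upstream rose 17.1-fold. Fasl, the gene of the death ligand, had 7 of 16 opening.

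Ifng, the interferon gamma gene, was split. It had 4 opening peaks and 1 closing one, which lay 192700 bp downstream. That peak held 778, 1021 and 1073 in N+P C5 and 265, 136, 149 and 151 in S+P C7 (log2 fold change -2.44 ± 0.29).

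Regulators of effector cells, transcription factors together with Bcl2 and Bcl2l11, had 29 opening and 2 closing peaks of 63, with a median log2 fold change of 0.78. Tbx21, which encodes T-bet, had all 4 of its peaks opening. The intronic one 2540 bp from its start held 390, 494, 421 and 346 in S+P C7 and 32.2, 43.9 and 40.9 in N+P C5 (log2 fold change 3.41 ± 0.40). Eomes had 5 of 8 peaks opening and Runx3, which drives the CD8 cytotoxic programme, 6 of 8. Zeb2, a transcriptional repressor that promotes terminal effector differentiation, had 1 of 3, at 3.82 ± 0.41.

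The Id2 peak whose sequence is shown above lay 58410 bp upstream of Id2, an antagonist of E proteins. It held 504, 346, 396 and 463 in S+P C7 against 40.2, 41.1 and 34.9 in N+P C5, an 11-fold difference. Both closing peaks of the list were in or near Bcl2, a survival gene (-1.30 ± 0.21 at the firmer one, whose call was lost under the test against the fold threshold). Prdm1, which encodes Blimp-1, had 5 peaks and no call.

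NK-type receptors, which mark differentiated CD8+ T cells as well as NK cells, had 9 of 17 peaks opening and 2 closing. An exonic Klrg1 peak held 330, 306, 355 and 451 in S+P C7 against 11.1, 8.22 and 7.21 in N+P C5, 40.5-fold higher (log2 fold change 5.34, and 3.08 with loess offsets). The Klrc1 promoter, for the inhibitory receptor NKG2A, rose 14.9-fold. The Klrd1 promoter, for its partner CD94, went the other way at -1.03 ± 0.17, a call lost under the test against the fold threshold and with GC offsets. Only 5 of the 13 listed genes had a peak. Of the markers listed for NK cells, Eomes and Klrb1c had 15 peaks, of which 7 opened and 0 closed. No merged peak had its nearest start at Ncr1, the other marker listed. The sorted cells were CD8+ and bound the tetramer, and the study's antibody panels included antibodies to NK cell antigens. Whether NK cells contributed was not tested.

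Among homing and adhesion genes, 24 of 56 peaks opened and 4 closed. All 4 peaks of Cx3cr1, a receptor of effector memory cells, were opening, with 308, 325, 442 and 351 in S+P C7 against 5.03, 13.7 and 4.81 in N+P C5 at an intronic peak (log2 fold change 5.54 ± 0.63). This value was 2.35 with loess offsets and 6.18 without N+P C5 replicate 2. Cxcr3 had 2 of 2 opening at 1.61 and 1.84. Cxcr4 was mixed, with 4 opening and 2 closing of 12. The intergenic Cxcr4 peak shown as sequence held 196, 136, 146 and 170 in S+P C7 against 373, 367 and 410 (-1.21 ± 0.13). Ccr9, the gut homing receptor gene, had 1 closing peak (-1.94 ± 0.42), as had Itgae (-0.91 ± 0.23). The test against the fold threshold no longer called this Cxcr4 peak or the Ccr9 and Itgae peaks, and the Itgae call was lost under 9 of 19 alternatives.

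Co-inhibitory receptor genes had 13 opening and 4 closing peaks of 31. Pdcd1 encodes PD1, on which both groups were sorted as positive. Its peak 3016 bp upstream of the start (chr1:93982381-93984275) nevertheless held 852, 979, 893 and 545 in S+P C7 against 108, 94.6 and 92.6 in N+P C5, and the log2 fold change was 3.05 ± 0.34. Of 5 Pdcd1 peaks 3 were opening, and the one with the highest mean count over all 25 samples, 39428 bp upstream, was not called (-0.51 ± 0.20).

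Havcr2, the gene of the inhibitory receptor Tim-3, had all 4 peaks opening, and its promoter held 190, 300, 272 and 306 in S+P C7 and 3.02, 9.59 and 10.8 in N+P C5 (log2 fold change 5.12, and 2.08 with loess offsets). An intronic peak of Tigit, an inhibitory receptor that competes with CD226, held 324, 237, 224 and 225 against 44.3, 45.2 and 48.1 (log2 fold change 2.47 ± 0.23). With loess offsets it was 0.67 and not called. Closing peaks were those of Btla (promoter, -1.24 ± 0.19) and Vsir (-1.18 ± 0.16), both no longer called when tested against the fold threshold. Cd101 had 2 closing and 2 opening peaks of 5. No merged peak had its nearest start at Lag3, Cd160, Cd244a or Cd200r1.

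The transcription factors tied to exhaustion had 25 opening and 8 closing peaks of 66. Bhlhe40, a basic helix-loop-helix factor induced by activation, accounted for 10 of the opening ones among its 12 peaks. The firmest held 771, 849, 1065 and 1128 in S+P C7 against 28.2, 39.7 and 38.5 in N+P C5. A peak 237237 bp downstream of Maf held 336, 339, 287 and 189 against 8.05, 5.48 and 10.8 (log2 fold change 5.14 ± 0.54, and 2.22 with loess offsets), and it was the only one of 6 Maf peaks that was called.

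Tox, a driver of the exhausted state, moved in both directions within its own gene. Of 8 peaks 2 were opening and 4 closing. An intronic peak 146706 bp from the start held 329, 386, 545 and 290 in S+P C7 against 38.2, 37.0 and 28.9 in N+P C5 (3.48 ± 0.40, and 1.92 with loess offsets). Another, 20134 bp from the start, held 206, 140, 118 and 85.8 against 628, 757 and 941 (-2.50 ± 0.33). All 3 peaks of its relative Tox2 were opening, at 1.30 to 1.70. Nfatc1 had 2 opening and 1 closing of 7, and Ikzf2 1 opening and 3 closing of 4. No peak was called at Nr4a2, Nr4a3, Nfatc2, Nfatc3, Nfat5 or Irf4.

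Among regulators of naive and stem-like T cells most calls were closing. Of 117 peaks, 53 were closing and 9 opening (45.3% and 7.69%), and the median log2 fold change was -0.75 against 0.01 for all peaks. Satb1, a chromatin organizer of naive cells, had 10 of 12 peaks closing. The one 46405 bp upstream held 953, 1142 and 1241 in N+P C5 and 256, 197, 227 and 166 in S+P C7 (-2.39 ± 0.25). Ccr7, the lymph node homing receptor gene, had all 6 peaks closing, led by one that went from 714, 724 and 725 to 179, 104, 81.2 and 92.8 (-2.65 ± 0.29). The Klf3 gene had 6 of 9 closing, Lef1 6 of 13, Il7r 4 of 5 and Tcf7 2 of 6. Myb and Klf2 had 1 opening peak each and no closing one (2.06 ± 0.37 at Myb), and Id3 had no call.

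Bach2, a repressor of effector genes, was called in both directions. Of 15 peaks 7 closed, all of them intronic, and 2 opened, both of them intergenic. A peak upstream of its nearest start, within the gene (chr4:32349993-32352404), held 1094, 1212 and 1184 in N+P C5 against 319, 158, 249 and 300 in S+P C7. Another, 58860 bp upstream (chr4:32179426-32180282), held 52.3, 56.2 and 52.9 against 603, 514, 577 and 633. S1pr1 (2 opening, 3 closing), Foxp1 (2 opening, 5 closing) and Lef1 (1 opening, 6 closing) were also called in both directions.

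TGF-beta pathway genes had 17 closing and 2 opening peaks of 51. Tgfbr3, the co-receptor betaglycan, had both of its peaks closing, and the firmer one held 427, 424 and 428 in N+P C5 and 91.0, 17.0, 23.2 and 45.1 in S+P C7 (-3.24 ± 0.53). This value was -4.07 with loess offsets and -3.86 without S+P C7 replicate 1. Tgfbr2, the type II receptor gene, had 4 of 13 closing, Ski, a repressor of Smads, 3 of 8, and Smad4 2 of 3. Smad7 held both opening peaks of the list and 6 closing ones. The 5 Smad3 peaks were between 0.40 and 0.75, and none was called.

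Genes of T cell receptor signalling and anergy had 20 opening and 8 closing of 84 (23.8% and 9.52%, against 11.4% and 10.6% of all peaks). Outside promoters their shares were 30.2% and 12.7%, against 23.2% and 20.2% of all such peaks. Opening peaks were at Ptpn13 (5 of 7), Fyn (4 of 8), Ptpn22 (3 of 5), Dgkh (3 of 3), Lck (2 of 5), Cblb (2 of 19) and Egr2 (1 of 4). Cblb, a ubiquitin ligase that restrains T cell activation, also had 7 closing peaks, so that it made up most of the closing side of the list. Its intronic peak at chr16:51946115-51947023 held 539, 463, 562 and 426 in S+P C7 against 54.3, 82.2 and 86.6 in N+P C5. Its peak far upstream, at 311207 bp, held 67.2, 69.8, 69.6 and 45.8 against 290, 359 and 340. No peak of Cd3e, Cd3d, Cd3g, Cd247, Zap70 or Lat was called.

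Cytokine receptor, Jak, Stat and Socs genes had 15 opening and 4 closing of 80, with a median log2 fold change of 0.12. The single Jak2 peak, in an intron, held 599, 577, 524 and 425 in S+P C7 against 42.3, 71.3 and 57.7 (3.22 ± 0.41). Il6st, the shared receptor chain gp130, had 2 opening and 2 closing of 9. Stat3 had 1 of 2 opening (2.94 ± 0.42). Jak1 had 8 peaks and Stat5a and Stat5b together 4, none of them called.

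The AP-1 and bZIP genes themselves were called equally in both directions, 5 opening and 5 closing of 31. Fosl2 opened (1.94 ± 0.28), Bach1 had 3 closing peaks of 5 (-3.17 ± 0.54 at the firmest), and a long peak over Jun closed (-1.07 ± 0.22), a call lost under the test against the fold threshold and with loess offsets. The calls at Batf (0.97 ± 0.27) and at the Atf3 promoter (0.92 ± 0.23) lay near the threshold and were lost under 4 and 5 of the alternatives. Costimulatory and TNF superfamily genes likewise had 8 opening and 8 closing of 44. Cd226 had 5 of 6 closing, Cd28 1 of 5 (-1.44 ± 0.30, not called when tested against the fold threshold), and Icos 1 of 4 opening (3.28 ± 0.36).

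CD73 and adenosine genes were described apart, because CD73 separated the gates. Nt5e itself had 5 peaks, all lower in S+P C7, with log2 fold changes from -0.87 to -0.47, and none was called. Its intronic peak with the highest mean count held 382, 458, 553 and 543 in S+P C7 and 708, 780 and 951 in N+P C5 (-0.75 ± 0.15, adjusted p = 4.96e-06, DESeq2). In S+P C5 it held 712, 647, 741 and 684. At this peak the CD73+ groups overlapped and the CD73- group lay below both. That order did not hold at all 5 peaks: another intronic Nt5e peak was opening in S+P C5 against N+P C5 (log2 fold change 1.36) and closing in S+P C7 against S+P C5 (-1.93).

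Entpd1 encodes CD39, the enzyme that makes the AMP on which CD73 acts, and all 3 of its peaks opened. An intronic one held 351, 294, 369 and 272 in S+P C7 against 7.04, 5.48 and 4.81 in N+P C5, 55.3-fold higher (log2 fold change 5.79, and 2.44 with loess offsets). The adenosine receptor gene Adora2a had 4 of 7 opening, led by a peak in an intron of Specc1l at 2.05 ± 0.35. Dpp4, which encodes an adenosine deaminase binding protein, had 2 of 4 closing, and the call of the one at -0.97 was lost under 3 alternatives. The list as a whole had 7 opening and 3 closing of 24 and a median log2 fold change of -0.25.

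Over the CD8 T cell markers 8 of 26 peaks opened and 1 closed (30.8% and 3.85%, against 11.4% and 10.6% of all peaks), 6 of the opening ones at Runx3. The Cd8a peak with the highest mean count over all samples held 416, 420, 557 and 476 in S+P C7 and 322, 436 and 382 in N+P C5, which overlapped (0.30 ± 0.15). Another Cd8a peak was opening, at 1.19. The Cd3e promoter was at 0.44 ± 0.15 and not called. No merged peak had its nearest start at Cd8b1. Cd2 had 1 opening and 1 closing peak of 5. Cd4 had 2 peaks, 1 of them closing (-1.31), and no merged peak had its nearest start at Foxp3.

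**Figure D4:**
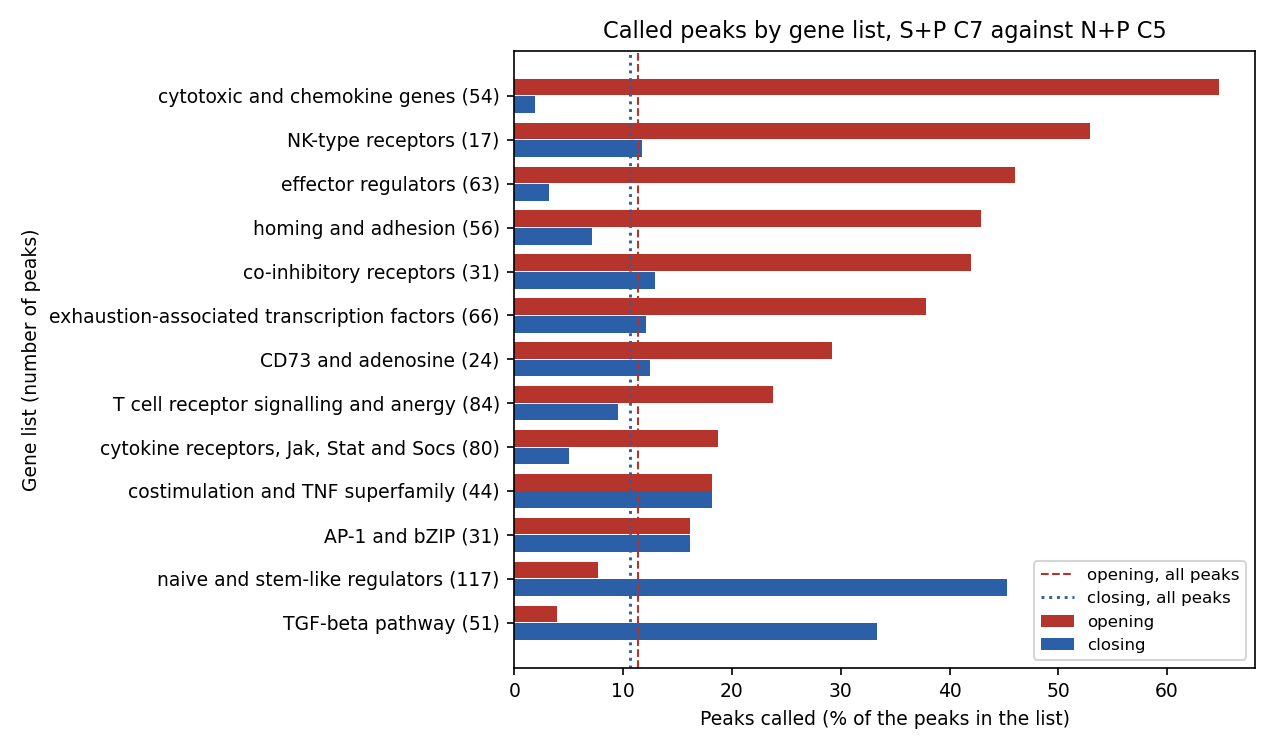
Share of the peaks of each gene list that were opening (red) or closing (blue) in S+P C7 against N+P C5, in percent, with the number of peaks after each name and lines at the shares over all peaks (11.4% and 10.6%). Opening exceeds closing in 9 lists, the 2 are equal in 2, and closing exceeds opening in naive and stem-like regulators and the TGF-beta pathway.

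Most listed peaks lay outside promoters, where 23.2% of all peaks were opening and 20.2% closing. Against these shares, 21.7% of the cytokine receptor, Jak, Stat and Socs peaks outside promoters were opening and 6.67% closing, near or below the background. The AP-1 and bZIP peaks (16% and 20%) and the costimulatory and TNF superfamily peaks (18.2% and 21.2%) also lay near or below it. Outside promoters the cytotoxic and chemokine genes had 66.7% opening and 2.38% closing, and the effector regulators 49.1% and 3.64%. The naive and stem-like regulators had 7.69% and 46.2%, and the TGF-beta pathway 4.44% and 37.8%. For NK-type receptors the shares were 53.3% and 6.67%, for co-inhibitory receptors 50% and 8.33%, and for homing and adhesion genes 46.7% and 8.89%. Exhaustion-associated transcription factors had 43.1% and 11.8%, CD73 and adenosine genes 38.9% and 16.7%, and T cell receptor signalling and anergy genes 30.2% and 12.7%.

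With the gate held fixed, S+P C5 against N+P C5 gave 1390 opening peaks (10.3%) and 943 closing peaks (6.97%). Opening peaks were 59.6% of these calls, and 47.3% with loess offsets. This comparison shares its N+P C5 samples with the one above, so their values are placed side by side only. At the Ptpn13, Aopep and Gzmk promoter peaks the log2 fold changes were 3.70, 2.91 and 5.96 for S+P C5 and 3.74, 2.92 and 6.11 for S+P C7. At the closing peaks of Fbxl21, Foxp1 and Abhd2 they were -1.16, -1.12 and -1.56 for S+P C5 and -2.65, -2.60 and -2.84 for S+P C7. The list medians for S+P C5 were 1.41 for cytotoxic and chemokine genes, 0.66 for effector regulators and -0.46 for naive and stem-like regulators.

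With graft history held fixed, S+P C7 against S+P C5 tested the difference between the 2 contrasts directly. By this test, fitted without the pairing of same-numbered samples, 36 peaks were opening (0.266%) and 286 closing (2.11%), and no call exceeded 4-fold. Within the 12 S+P samples, a fit with the replicate number as a block gave 51 and 400, and 52 and 268 without the block. Peaks with an adjusted p under 0.1 (DESeq2) were 3013 with that block and 1135 without it. Tested against the fold threshold, DESeq2 called 0 peaks, while 2494 had an unadjusted p under 0.05 for any difference and edgeR called 25 opening and 251 closing. The counts moved with single samples. They were 5 and 171 when the fourth S+P C7 sample was left out, 15 and 225 for the third and 54 and 551 for the first. For S+P C5 they were 16 and 169 with the first sample left out and 22 and 277 with the third left out.

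The peaks called both in S+P C7 against N+P C5 and against S+P C5 were led on the closing side by the Fbxl21 peak. It held 301, 233, 288 and 248 in S+P C5, between the other groups, and S+P C7 was lower than S+P C5 by a log2 fold change of -1.49 ± 0.17 (adjusted p = 3.01e-14, DESeq2). A Foxp1 peak 43116 bp upstream (chr6:99286093-99287091) held 530, 560, 474 and 475 in S+P C5 and 503, 589 and 571 in N+P C5, against 191, 197, 159 and 160 in S+P C7. Here both CD73+ groups overlapped, and the difference of S+P C7 from S+P C5 was -1.53 ± 0.19. An intronic peak of Foxn3, a forkhead repressor gene, showed the same order (-1.28 ± 0.16), with 299, 256, 303 and 269 in S+P C5 and 137, 128, 99.4 and 102 in S+P C7.

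On the opening side the promoter of Irag2, an endoplasmic reticulum protein gene, held 339, 388, 413 and 365 in S+P C7, 209, 225, 204 and 165 in S+P C5 and 106, 154 and 138 in N+P C5. S+P C7 exceeded S+P C5 by 0.91 ± 0.16 on the log2 scale, just over the threshold. A peak upstream of Poli was at 0.98 ± 0.19.

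By gene list, this direct test gave no opening and 15 closing peaks of 117 in naive and stem-like regulators, 5 of them at Ccr7. It gave 3 opening and 1 closing of 54 in cytotoxic and chemokine genes, and none of 63 in either direction in effector regulators. The list medians were -0.31, 0.26 and -0.03, against 0.00 for all peaks. Co-inhibitory receptors had 0 opening and 1 closing and exhaustion-associated transcription factors 1 and 1. At the upstream Pdcd1 peak the difference was 0.11 ± 0.31 and at the Tox peak 146706 bp from the start -0.09 ± 0.34. The list counts and these values are without the pairing, and in each of the 4 same-numbered pairs the Pdcd1 count was higher in S+P C7. So was that of the Havcr2 promoter, with 103, 144, 123 and 170 in S+P C5 (0.98 ± 0.47, not called). The intronic Tigit peak was lower in S+P C7 in each pair, with 339, 386, 369 and 315 in S+P C5 (-0.47 ± 0.18, not called).

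Promoter peaks were 12.1% of the opening and 17.1% of the closing peaks, against 56.7% of all. Outside promoters the median length was 680 bp for opening, 815 bp for closing and 798 bp for all peaks, and the median GC content was 47.6%, 46.8% and 48.1%. The median distance to the nearest start was 19546 bp for opening and 26414.5 bp for closing peaks, against 18650.5 bp for all. Between 1000 and 10000 bp from a start 20.7% of peaks were opening and 14.6% closing, and beyond 100000 bp 23.2% were opening and 30.5% closing.

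Of 8628 genes with a peak, 1901 had at least 1 called peak, of which 904 had opening peaks without a closing one, 855 the reverse and 142 both. Over all peaks 22% were called, and genes with more peaks had more that could be. Of 18 genes with at least 7 called peaks, Atp10a, a phospholipid flippase gene, had the most (3 opening and 8 closing of 15). Bhlhe40 (10 of 12), Fasl (7 of 16) and Tubd1 (7 of 8), a tubulin gene, had opening peaks only. Btg1, an antiproliferative gene (10 of 14), Satb1 (10 of 12), Prkcq, the T cell kinase PKC theta (7 of 14), Pakap (7 of 7) and Trio (7 of 9) had closing peaks only. Ets1 and Akap13 had 4 in each direction, and Cd47 had 6 opening and 2 closing.

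The calls were set beside the deposited peak lists of the 2 groups, each pooled over the samples of a group. These lists come from the same libraries as the counts, so the overlaps are a description and no independent support. Of the opening peaks 63.4% (95% Wilson interval 60.9% to 65.8%, counting error only) overlapped a peak of the S+P C7 list alone and 0.583% one of the N+P C5 list alone. Of the closing peaks 68.0% (65.5% to 70.4%) overlapped the N+P C5 list alone and 0.419% the S+P C7 list alone. Over all 13527 peaks these shares were 17.7% and 16.0%, and 46.2% overlapped both. Of the opening and closing peaks, 31.0% and 24% were in neither list. With entries of the lists limited to a q-value under 0.05, 2.79% of opening peaks overlapped the S+P C7 list alone and 1.61% of closing peaks the N+P C5 list alone. Over all peaks these shares were 5.82% and 0.717%, so that opening peaks then had a lower share than all peaks.

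The letters under the called peaks differed as well. In 300 bp windows outside promoters, the AP-1 string TGANTCA was found in 27.3% of opening, 9.27% of closing and 15.9% of all peaks. The T-box string TCACACC followed, with 14.1%, 4.47% and 7.70%. The TCF/LEF string CTTTGA had the opposite order, with 22.2% of opening, 35.9% of closing and 25.5% of all peaks, as had CACCTG, the string of ZEB and E proteins (17.5%, 26.4% and 21.8%). The RUNX string TGTGGTT was about as frequent in opening (23.3%) as in closing peaks (21.8%), against 20.1% of all.

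Of the other strings outside promoters, NFAT (TGGAAAA) was in 9.06% of opening and 6.16% of closing peaks, KLF (CACACCC) in 14.6% and 8.94%, NR4A (AAGGTCA) in 6.56% and 3.96%, ETS (CCGGAAG) in 3.02% and 3.46% and SP (GGGCGGG) in 4.57% and 4.81%. The shares over all such peaks were 7.29%, 11.1%, 4.88%, 4.73% and 8.59%. Both strands were searched. A T-box string followed by C also holds the KLF string, so these are not separate counts. At promoters AP-1 was in 17.7% of opening, 2.86% of closing and 4.08% of all peaks, T-box in 10.8%, 2.04% and 3.14%, and SP in 27.4%, 29.0% and 45.0%. These are counts of letters in a window, not of bound sites.

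**Figure D5:**
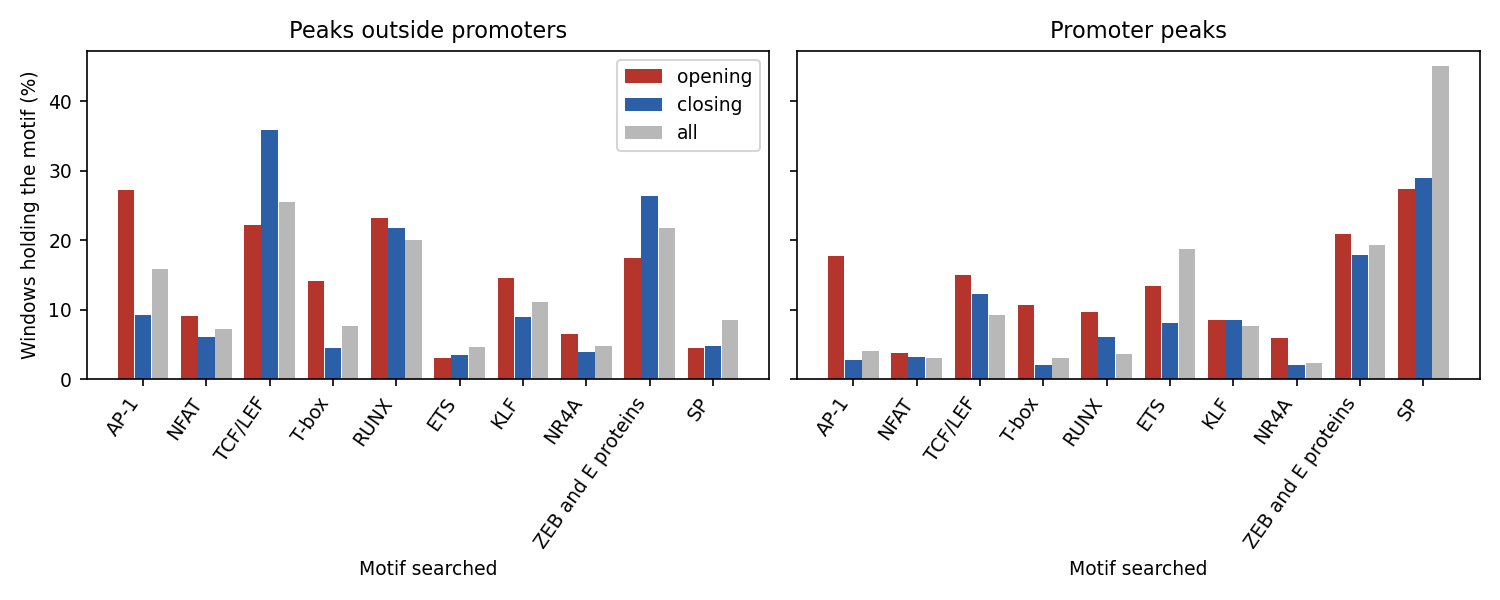
Share of 300 bp windows that hold each motif string on either strand, in percent, for opening (red), closing (blue) and all (grey) peaks, outside promoters (left) and at promoters (right). Outside promoters AP-1 and T-box are highest in opening peaks, and TCF/LEF and the ZEB and E protein string in closing peaks.

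The share of the counts in peaks that fell in promoter peaks did not separate the groups. This share leaves out reads outside the merged peaks. It was 66.9% ± 0.51 (SD, n = 4) in S+P C7 and 67.4% ± 1.31 (SD, n = 3) in N+P C5, a difference of -0.56 percentage points (two-sided exact permutation p = 0.571).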

How the data were processed

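ATAC-seq libraries of sorted CD8+ T cells were analysed as deposited. Per the submitters' processing notes, the authors used cutadapt 3.4, Bowtie2 2.2.9, Picard 2.21.8 and Genrich 0.6.1, on GRCm39. The deposited table holds raw read counts for 13527 merged peaks in 25 samples, and the deposited peak lists give a q-value per entry, with replicates pooled into 1 list per group. One DESeq2 1.42.0 fit (R 4.3.3, median-of-ratios size factors, group as the only term, Wald test, Benjamini-Hochberg adjustment) covered all samples and peaks. Calls required an adjusted p below 0.1 together with an unshrunken log2 fold change beyond 0.9 in either direction. A normalized count is a count divided by the size factor. Library correlations used log2 values with a pseudocount of 1. Peaks were assigned to the nearest start of a protein-coding transcript (GENCODE, GRCm39, 13522 of 13527 peaks), which does not show that a peak acts on that gene. Totals in the compared groups were 4789587 to 12638305 counts, with a median of 281 to 749 per peak, and intervals cover counting error only.

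Named peaks were chosen by several rules, 1 per nearest gene within a rule. The 6 outside promoters and 4 at promoters with the smallest adjusted p in each direction were called peaks without overlap between the 7 samples. Up to 4 genes per gene list and direction were taken by their called peak with the smallest adjusted p, with no condition on overlap. The 3 peaks per direction also called against S+P C5 with the same sign had no such condition either. At Pdcd1, Nt5e, Cd8a and Cd3e the peak with the highest mean count was taken, called or not. The groups, members and lists were chosen with earlier results of these data known. Same-numbered S+P C7 and S+P C5 samples deviated together (r = 0.77, 0.57, 0.52 and 0.63) and are regarded as pairs. The main fit has no term for these pairs, which entered only the alternatives with a replicate block. Scripts were tested on simulated data. Alternatives were edgeR 4.0.16, other scalings, filters and thresholds, a replicate block and leaving out samples. Some named or listed items are not reported here.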

Additional observations from a re-analysis of the deposited data

Results flagged for a closer look

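In 6 of 107 groups of 4 samples tested, 1 sample of S+P C7 stood apart from the others by Dixon's criterion at 95%, which chance passes in about 1 in 20 groups. These were a normalized count of 324 at the Tigit intronic peak, 1008 at the Fyn peak, 139 at the closing Nfatc1 peak, 265 at the closing Ifng peak, 202 at the closing Atf3 peak and 45.8 at the closing Cblb peak. The sample was replicate 1 at Tigit, Nfatc1, Ifng and Atf3, replicate 2 at Fyn and replicate 4 at Cblb. The difference from N+P C5 was not the same in S+P C7 and S+P C5 at 322 peaks, by the DESeq2 test of S+P C7 against S+P C5.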

How the results depend on the processing

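Of 105 named peaks, 77 kept their call, or for the sorting and lineage peaks the absence of one, under every alternative run, 28 lost it in at least 1, and none changed direction. The fold moved by more than 1.5 times at 40 of them with loess offsets, at 2 without N+P C5 replicate 2, at 1 without N+P C5 replicate 3 and at 1 when S+P C7 replicate 1 was left out. The test against the fold threshold gave 876 opening and 703 closing peaks for S+P C7 against N+P C5, 791 and 172 for S+P C5 against N+P C5, and 0 and 0 for S+P C7 against S+P C5. A minimum mean count of 300, chosen after seeing the data because the planned 50 removed 0 peaks, left 10967 peaks and gave 777 and 856, 647 and 496, and 6 and 139. For S+P C7 against S+P C5, an adjusted p under 0.05 gave 20 opening peaks and a fit to the compared groups alone 59. Leaving out 1 sample gave 1500 to 1594 opening and 1370 to 1540 closing peaks for S+P C7 against N+P C5, 1320 to 1447 and 878 to 1105 for S+P C5 against N+P C5, and 5 to 54 and 169 to 551 for S+P C7 against S+P C5. Loess offsets gave 1169 and 1562 for S+P C7 against N+P C5, or 42.8% opening. The cause of these shifts was not tested. With a replicate block the counts were 1572 and 1446 for S+P C7 against N+P C5, whose same-numbered samples shared only a number (r = -0.21, -0.03 and 0.01), and 34 and 310 for the paired S+P C7 against S+P C5. A block within the 12 S+P samples alone, added after seeing the data, gave 51 and 400, against 52 and 268 without it. The difference in promoter share ran from -1.14 to 0.14 percentage points when leaving out samples and changed sign to 0.14 without N+P C5 replicate 1. With an entry required to cover at least as much of a peak as it left uncovered, 73.3% of closing and 23.6% of all peaks overlapped the N+P C5 list alone. With a q-value under 0.05 the shares were 1.61% of closing against 0.717% of all peaks, but 2.79% of opening against 5.82% of all peaks, the opposite order to that without the limit.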

Other observations

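Over all chromosomes S+P C7 against N+P C5 gave 1543 opening and 1431 closing peaks, and the split varied between chromosomes. Chromosome 19 had 55 opening and 8 closing peaks of 331, and over the alternatives 86.0% to 94.1% of its calls were opening. Chromosome 11 had 109 and 44, and chromosome 9 had 126 and 58. Chromosome 16 had 55 and 85, chromosome 17 had 48 and 77 and chromosome 3 had 82 and 110. The X chromosome had 8 and 18 of 307, so that 8.47% of its peaks were called against 22% of all peaks.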
